A study of Mus musculus with 9 samples.

Results

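Libraries depleted of 5′ tRNA-half fragments with RNase H were compared directly with libraries depleted on magnetic beads. The 6 libraries, 3 per protocol, were chosen by their depletion label out of 9 in the series, and the 3 libraries without depletion were left out. All came from serum of healthy 129/SVj mice of both sexes, aged between 2 and 9 months and sedated with tribromoethanol before blood was drawn from the heart. The labels name the serum pools A, B and C, and each pool gave 1 library per protocol. The protocol text speaks of 200 µl aliquots taken from a pool of 3 mice, so the spread among replicates may hold technical variation alone. Both protocols used the same kind of biotinylated DNA probes against the 5′ tRNA-half fragments of glutamine, glycine, valine and histidine tRNAs.

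In bead depletion, streptavidin on the beads holds the biotin of the probe, and the probe with its bound RNA is drawn out of the solution with a magnet. RNase H instead cuts the RNA strand of a DNA/RNA hybrid, after which the probes were digested with DNase I, a step that the methods describe for RNase H and not for beads. A 5′ tRNA-half fragment is the front part of a tRNA cut in its anticodon loop, and such fragments are known to be plentiful in mouse serum. miRNAs are short RNAs that guide Argonaute proteins to messenger RNAs, and serum miRNAs are studied as blood markers. They compete with tRNA-half fragments for reads because both are small enough to enter a small RNA library.

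The files give each miRNA by its miRBase identifier without a name. The exception whose name is known from the study's text is miR-16-5p (MIMAT0000527), a miRNA abundant in blood. Its mature sequence from RefSeq (GRCm38.p6) is shown because this miRNA is followed through the results, and the capitals mark the seed, bases 2 to 8 from the 5′ end, with which a miRNA pairs to its targets.
miR-16-5p: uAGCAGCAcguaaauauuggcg
The same 22 bases are encoded at chr3:69009918-69009939 on the plus strand and at chr14:61631936-61631957 on the minus strand. The first copy (Mir16-2) lies in an intron of Smc4, which encodes a condensin subunit, and the second (Mir16-1) in an intron of the non-coding gene Dleu2, each on the strand of its host gene.

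The number of annotated reads, that is reads counted as a miRNA or as another small RNA class, differed greatly between the protocols. The paper reports similar mean numbers of total reads for RNase H and beads libraries, so the difference lies in the annotated part. RNase H libraries held 160581, 47252 and 79255 annotated reads in pools A, B and C. Beads libraries held 3348787, 2796718 and 3538246. Every RNase H library lay below every beads library, and the mean was 33.7 times higher with beads (exact permutation test, two-sided, p = 0.1, the smallest that 3 against 3 libraries allow). RNase H libraries also differed more among themselves, with 3.40 times as many reads in pool A as in pool B, against 1.27 times between the highest and the lowest beads library. A share of annotated reads was precise to within 0.411 percentage points in every library (Wilson 95% interval), and all intervals given here cover counting error only.

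miRNA was the class with by far the lowest read number relative to beads. The RNase H libraries held 2040, 1977 and 1199 miRNA reads. In the beads libraries of the same pools 1926545, 1995956 and 1822088 reads were miRNA. The groups were far apart, and the mean was 1101 times lower with RNase H (exact permutation p = 0.1).

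tRNA reads, a class that holds the targeted fragments and all other reads annotated as tRNA, were also fewer with RNase H. The libraries of pools A, B and C held 50119, 10528 and 17034 tRNA reads after RNase H. After beads they held 1356614, 742691 and 1644636. The groups did not overlap, and the mean was 48.2 times lower with RNase H (exact permutation p = 0.1) and 86.6 times lower without pool A. The difference in tRNA reads was thus smaller than that in miRNA reads in each pool. The number of tRNA reads per miRNA read was 24.6, 5.33 and 14.2 in RNase H libraries and 0.704, 0.372 and 0.903 in beads libraries. The lowest RNase H value lay above the highest beads value, with a ratio of the means of 22.3 (exact permutation p = 0.1). Pool B had the fewest tRNA reads per miRNA read under both protocols.

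**Figure D1:**
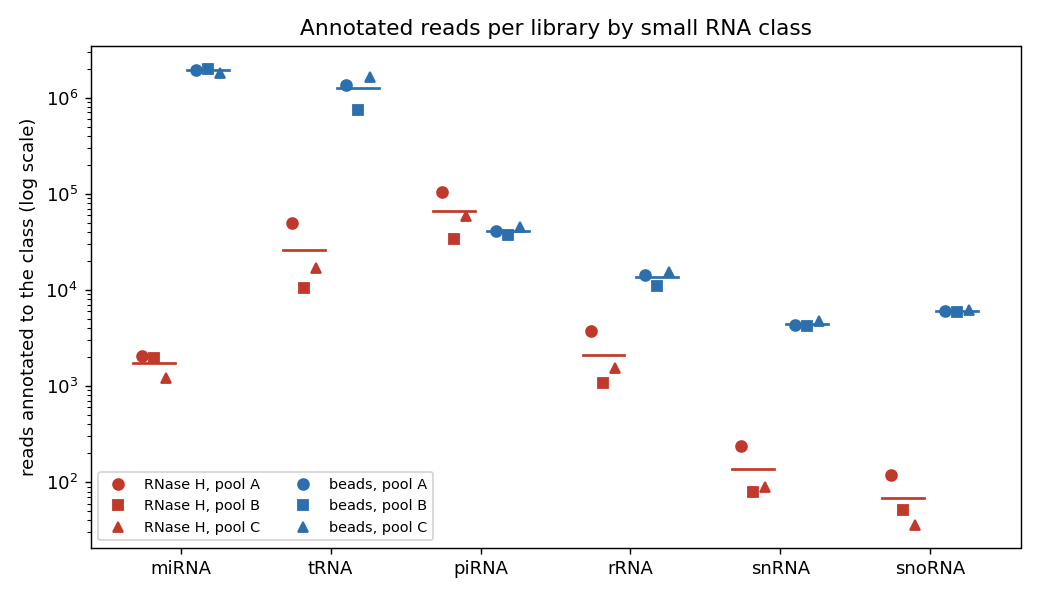
Reads annotated to each small RNA class in the 6 libraries, on a log axis. Red symbols are RNase H libraries, blue symbols are beads libraries, the shape marks the serum pool and the bar is the mean of 3 libraries. The groups are furthest apart for miRNA, 1739 against 1914863 reads on average, and overlap only for piRNA.

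The remaining classes kept the same order in all 3 pools. In pool A the number of reads with RNase H divided by that with beads was 0.00106 for miRNA, 0.0198 for snoRNA, 0.0369 for tRNA, 0.0559 for snRNA, 0.266 for rRNA and 2.54 for piRNA. In pool B these ratios were 0.000991, 0.00857, 0.0142, 0.0185, 0.0980 and 0.910. In pool C they were 0.000658, 0.00580, 0.0104, 0.0189, 0.10 and 1.31. Every ratio was thus highest in pool A, where the RNase H library held the most annotated reads.

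piRNA was the only class whose reads were not fewer with RNase H in every pool, as they were higher in pools A and C. piRNAs guide Piwi proteins and are best known from the germ line, and a read is placed in this class by its position alone. RNase H libraries held 104282, 33538 and 59370 piRNA reads and beads libraries 41101, 36850 and 45331. The values of the groups overlapped, and the difference of the means, a ratio of 1.60, was within the spread between replicates (exact permutation p = 0.4). rRNA reads, fragments of the ribosome's RNA, were lower with RNase H without overlap, with 3778, 1078 and 1525 reads against 14196, 10997 and 15213. Reads of snRNAs, which act in splicing, numbered 239, 79 and 90 against 4272, 4262 and 4768. Reads of snoRNAs, which guide the modification of rRNA, numbered 120, 51 and 36 against 6051, 5952 and 6202. These classes did not overlap between the protocols (exact permutation p = 0.1 each). Without pool A the ratio of the means, RNase H over beads, went from 0.158 to 0.0993 for rRNA, from 0.0307 to 0.0187 for snRNA and from 0.0114 to 0.00716 for snoRNA.

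The relative abundance of the classes also differed between the protocols. miRNA made up 2.32% ± 1.62 (SD, n = 3) of annotated reads with RNase H and 60.1% ± 10.2 (SD, n = 3) with beads, a difference of -57.8 percentage points that had the same sign in all 3 pools (exact permutation p = 0.1). piRNA made up 70.3% ± 5.02 (SD, n = 3) against 1.28% ± 0.0454 (SD, n = 3) (exact permutation p = 0.1). rRNA made up 2.19% ± 0.230 (SD, n = 3) against 0.416% ± 0.0197 (SD, n = 3), and snoRNA 0.0760% ± 0.0313 (SD, n = 3) against 0.190% ± 0.0203 (SD, n = 3) (exact permutation p = 0.1 each). The snRNA share, 0.143% ± 0.0273 (SD, n = 3) against 0.138% ± 0.0128 (SD, n = 3), differed less between protocols than among libraries of 1 protocol (exact permutation p = 0.8).

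The direction of the tRNA comparison turned on what the share was taken of. Of all annotated reads, tRNA made up 31.2%, 22.3% and 21.5% with RNase H and 40.5%, 26.6% and 46.5% with beads. The value was lower with RNase H within each pool (exact paired permutation p = 0.25, the smallest that 3 pairs allow). Without the pairing the groups overlapped, as the RNase H library of pool A lay above the beads library of pool B. The mean difference of -12.9 percentage points had an unpaired exact permutation p of 0.2 and was -6.79 without pool C. With piRNA left out of the total, tRNA made up 89.0%, 76.8% and 85.7% with RNase H and 41.0%, 26.9% and 47.1% with beads. All RNase H libraries were then above all beads libraries, by 45.5 percentage points on average (exact permutation p = 0.1). Of the tRNA and miRNA reads alone, tRNA made up 91.2% ± 6.24 (SD, n = 3) with RNase H and 38.6% ± 10.4 (SD, n = 3) with beads.

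The piRNA reads of the RNase H libraries lay on few sequences. The 10 most abundant distinct sequences of the class held 63.6%, 67.5% and 69.7% of its reads with RNase H. They held 31.7%, 27.6% and 34.3% with beads, so the lowest RNase H value lay far above the highest beads value (exact permutation p = 0.1). Thinned to equal piRNA reads within each pool, 1625, 1631 and 1723 distinct piRNA sequences were expected with RNase H and 5682, 4966 and 5841 with beads. The protocols thus differed in the diversity of this class although its read number overlapped. For tRNA reads the concentration overlapped. The 10 leading tRNA sequences held 64.5%, 54.4% and 67.8% of tRNA reads with RNase H and 66.9%, 60.5% and 69.1% with beads, values that overlapped (exact permutation p = 0.6). At equal tRNA reads within each pool, 1284, 825 and 772 distinct tRNA sequences were found with RNase H and 1730, 885 and 919 were expected with beads. The RNase H value was lower in all 3 pools (exact paired permutation p = 0.25, the smallest that 3 pairs allow). Without the pairing the exact permutation p was 0.5.

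**Figure D2:**
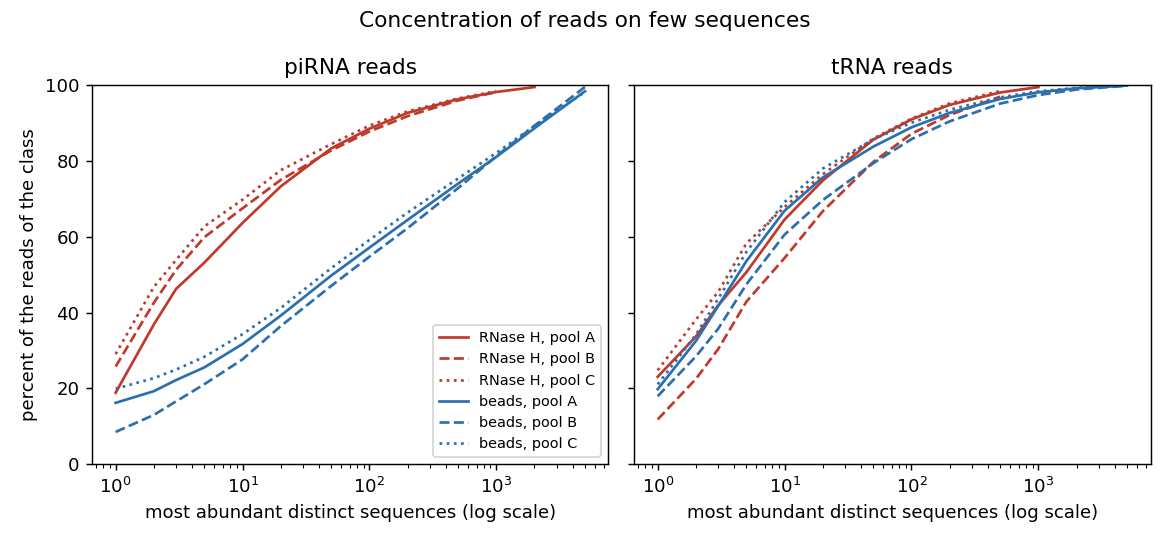
Cumulative percent of the reads of a class held by its most abundant distinct sequences, whose number is on a log axis, for piRNA on the left and tRNA on the right. Red lines are RNase H and blue lines beads libraries, with the line style marking the pool; the piRNA lines of the protocols stand apart (66.9% against 31.2% on average at 10 sequences) and the tRNA lines overlap.

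The files number the distinct sequences of a library by falling abundance, and gaps in this numbering are sequences outside the listed classes. They count distinct sequences and do not give the part of the reads outside these classes. The first sequence listed as tRNA, piRNA, rRNA, snRNA or snoRNA had rank 53, 63 and 35 in the RNase H libraries and was a piRNA in each. In the beads libraries it had rank 4, 7 and 4 and was a tRNA in each. Of the 100 leading ranks, 4, 2 and 2 were listed with RNase H and 21, 18 and 24 with beads. A rank that is not listed belongs to a miRNA or to a sequence outside both files. In the RNase H libraries the miRNA with the most reads had 320, 258 and 133 reads, and at least 1501, 1038 and 1932 distinct sequences each had more reads than that. Of these, 62, 21 and 48 were listed, so at least 1439, 1017 and 1884 sequences that outnumbered every miRNA were in neither file. In beads libraries the miRNA with the most reads had 229113, 238895 and 210705 reads. The same reckoning found at least 3 such sequences in pool A and at least 4 in pool C. It could not resolve pool B, where the first listed sequence, at rank 7, had fewer reads than the leading miRNA. The highest rank listed, a minimum for the number of distinct sequences, was 362898, 234462 and 255113 with RNase H and 197581, 192291 and 196503 with beads, although the latter held more annotated reads.

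Far fewer unique miRNAs were detected with RNase H. The libraries held 112, 113 and 98 miRNAs with at least 1 read, against 655, 671 and 669 with beads, without overlap (exact permutation p = 0.1). With a minimum of 4 reads the numbers were 51, 52 and 41 against 440, 456 and 447. At an equal number of miRNA reads the protocols were close. Beads libraries thinned to the miRNA reads of the RNase H library of their pool would hold 111, 111 and 93.3 unique miRNAs, slightly fewer than the RNase H library held in each of the 3 pools, with a mean difference of 2.38 (exact paired permutation p = 0.25, the smallest that 3 pairs allow). Without the pairing the exact permutation p of this difference was 0.5. At an equal number of annotated reads, beads libraries would still hold 343, 263 and 276.

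Nearly all miRNAs seen with RNase H were also seen with beads. Of 838 miRNAs seen in the 6 libraries, 154 were seen in an RNase H library and 71 in all 3 of them, and these 71 were in all beads libraries too. 1 miRNA was in an RNase H library and in no beads library, with a single read in pool B. Every miRNA expected to have at least 3 reads from its share in the beads library of the same pool was seen with RNase H, namely 57 of 57 in pool A, 58 of 58 in pool B and 44 of 44 in pool C. Of those expected to have from 1 to under 3 reads, 19 of 26, 21 of 26 and 23 of 28 were seen. Of those expected to have under 1 read, 36 of 572, 33 of 587 and 31 of 597 were seen. Being seen does not make the shares equal. The median of observed over expected reads was 0.753, 0.904 and 0.859 at 10 or more expected reads. From 3 to under 10 expected reads it was 0.796, 0.864 and 0.743. A miRNA without a read may still have made up to 0.147%, 0.152% and 0.25% of the miRNA reads of its RNase H library, the share of 3 reads.

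**Figure D3:**
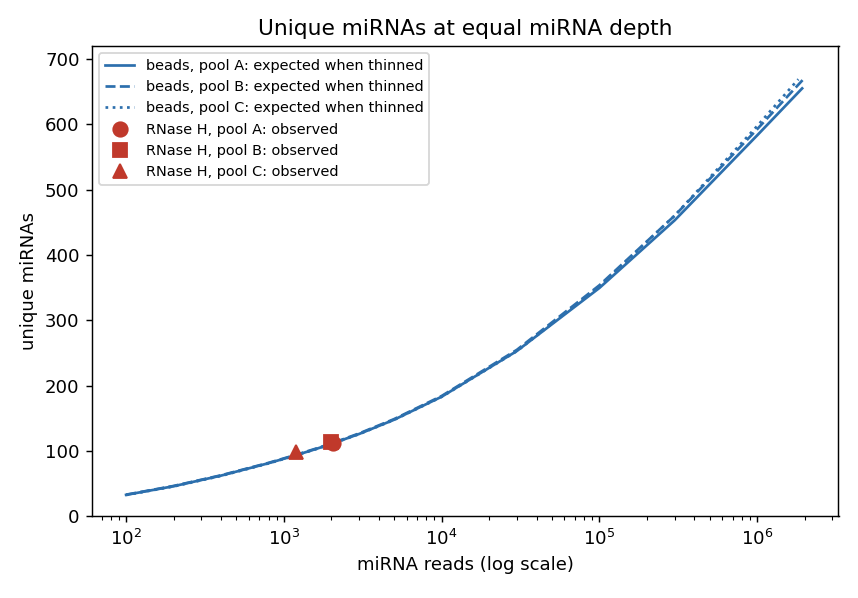
Unique miRNAs against the number of miRNA reads, on a log axis. Blue lines give the number expected when each beads library is thinned, red symbols the number observed in each RNase H library; the symbols, at 112, 113 and 98, lie on or slightly above the lines.

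Within the miRNA reads, the 10 leading miRNAs of a library held 64.2%, 65.5% and 66.8% with RNase H and 67.0%, 66.9% and 67.5% with beads. The RNase H values lay just below the beads values without overlap (exact permutation p = 0.1). miR-16-5p had 130, 223 and 125 reads with RNase H and 208494, 216007 and 192676 with beads. As a share of miRNA reads this was 6.37% (Wilson 95% interval 5.39% to 7.52%), 11.3% (9.96% to 12.7%) and 10.4% (8.82% to 12.3%) with RNase H, against 10.8%, 10.8% and 10.6% with beads. It was lower with RNase H in pools A and C and higher in pool B, and pool A alone had an interval that left out the beads value. Its log2 fold change was -0.24 ± 0.22 (SE) with an adjusted p of 0.850 by edgeR's quasi-likelihood test, and 0.0207 without pool A. These values are for shares of miRNA reads, and with its own size factors DESeq2 gave -3.57 (adjusted p = 1.29e-19).

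MIMAT0000531, which had the highest mean share with RNase H and the second highest with beads, had 180, 258 and 133 reads with RNase H and 217063, 226929 and 210705 with beads. That was 8.82%, 13.1% and 11.1% of miRNA reads against 11.3%, 11.4% and 11.6%, again lower in pool A and closer in the other pools. Its log2 fold change was -0.07 ± 0.21 (SE) with an adjusted p of 0.850 in the edgeR test, and 0.0729 without pool A. DESeq2 gave -3.40 (adjusted p = 9.19e-19). Of the 10 miRNAs with the highest mean share over both protocols, 9 did not pass the test. Their log2 fold changes lay between -0.53 and 0.11, with standard errors of 0.21 to 0.23 and adjusted p from 0.475 to 0.850 (edgeR).

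Tested across all miRNAs, few passed as different in their share at the low number of miRNA reads with RNase H. Of 263 miRNAs with enough reads, 4 passed an adjusted p of 0.05 in edgeR's quasi-likelihood test with the pool as a block, which is 1.52% of those tested. All 4 had higher shares of the miRNA sum with RNase H in each of the 3 pools and 0 were lower, and 1 of the 4 passed the filter on low counts only through the RNase H libraries, where it was high. At an unadjusted p under 0.05 there were 19, of which 11 were higher and 8 lower. By other tools, filters and scalings the number passing ranged from 3 (edgeR, robust or with a filter on the mean share) to 217 (edgeR, all annotated reads as library size), and DESeq2 passed 137, nearly all lower with RNase H, and limma-voom 169, of which 163 were higher and 6 lower. Of the 263, 114 had no read in any RNase H library and 149 had one. Some of the 163 that limma-voom called higher thus had no read with RNase H, so their direction does not rest on reads. The fit gave every miRNA the same spread (an infinite prior), so a wide spread of a single miRNA between pools is not reflected in its p.

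MIMAT0020637 had the smallest adjusted p. It had 70, 34 and 57 reads with RNase H and 178, 282 and 200 in the beads libraries, which held far more miRNA reads. From the beads shares 0.188, 0.279 and 0.132 reads were expected. It thus made up 3.43%, 1.72% and 4.75% of miRNA reads against 0.00924%, 0.0141% and 0.0110%, and the groups were far apart. The log2 fold change was 8.11 ± 0.31 (SE), a fold of 275, with an adjusted p of 3.83e-94 by edgeR, and across 12 alternatives the adjusted p did not exceed 0.000274.

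MIMAT0014944 came next, with 144, 62 and 7 reads with RNase H and 4838, 5589 and 4907 with beads. Its share was 7.06%, 3.14% and 0.584% against 0.251%, 0.280% and 0.269%. All 3 RNase H values were above the beads values, but the excess was 28.1 times in pool A, 11.2 times in pool B and 2.17 times in pool C. The log2 fold change was 3.49 ± 0.28 (SE) with an adjusted p of 2.24e-29 by edgeR, and it was below 0 with DESeq2 and with all annotated reads as library size. When single miRNAs were allowed their own spread (edgeR, robust) the call was lost (adjusted p = 0.838), and over the alternatives the adjusted p ranged from 2.76e-91 to 0.961.

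The other two miRNAs that passed lay at opposite ends of abundance. One of them ranked 2 by its mean share with RNase H and 9 with beads. It had 320, 99 and 104 reads with RNase H and made up 15.7%, 5.01% and 8.67% of miRNA reads, against 3.01%, 2.65% and 3.20% with beads. In pool A it was the leading miRNA. Its share was higher in all pools, with a log2 fold change of 1.59 ± 0.22 (SE) and an adjusted p of 3.90e-10 (edgeR). Over the alternatives the adjusted p ranged from 4.42e-24 to 0.0486, and the direction turned with DESeq2 and with all annotated reads as library size. The last, which would have been left untested on its beads levels, was a rare miRNA with 4, 3 and 2 reads with RNase H and 20, 24 and 24 with beads, for a log2 fold change of 7.19 ± 1.13 (SE) and an adjusted p of 2.90e-08 (edgeR; 2.77e-15 to 0.0486 over the alternatives). The 4 together held 26.4%, 10.0% and 14.2% of miRNA reads with RNase H and 3.28%, 2.94% and 3.48% with beads. As they were picked by their shares in these same libraries, the direction of this difference follows from the choice.

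**Figure D4:**
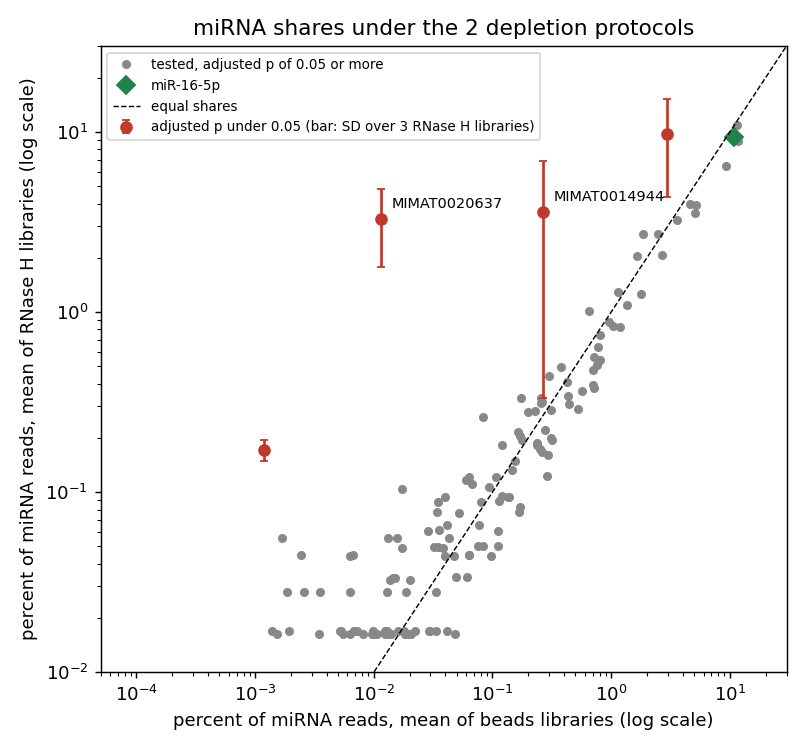
Percent of miRNA reads held by each miRNA, as the mean of the beads libraries against the mean of the RNase H libraries, both on log axes, for the 149 tested miRNAs with a read in an RNase H library. Red points passed the test and bars are the SD over 3 RNase H libraries; miR-16-5p (green) lies near the line of equal shares, while the 4 red points lie above it.

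On the lower side the smallest p belonged to MIMAT0000521. It had 0 reads in all RNase H libraries and 1988, 3000 and 2335 reads with beads. From its beads shares 2.11, 2.97 and 1.54 reads were expected, 6.61 in all, which in no library exceeded the limit of 3 that a count of 0 allows, so that no fold is given. Its adjusted p was 0.0586 by edgeR and 0.0183 without the replicate block, where it became the only miRNA that passed with a lower share, and it ranged from 2.14e-12 to 0.674 over the alternatives.

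There were 46 miRNAs whose mean share was at least that of 3 reads in the RNase H library with the fewest miRNA reads. Among these, 7 were higher and 19 lower in all pools and 20 were mixed, and the median log2 fold change was -0.27. As the mean was taken over both protocols, 3 of them, MIMAT0020637 included, reached this level only through the RNase H libraries. Of the other 43, 6 were higher and 19 lower in all pools, and their median log2 fold change was -0.30. Scaling moved the median of the 46. It was -0.42 with TMM, -3.61 with the size factors of DESeq2 and -5.19 when all annotated reads were taken as the library size, which is a scale on which miRNA as a class was 25.9 times lower with RNase H. Under the last of these scalings 2 miRNAs passed higher and 215 lower, with DESeq2 2 higher and 135 lower, and with limma-voom 163 higher and 6 lower. The 163 outnumber the 149 tested miRNAs that had a read with RNase H. Across miRNAs seen in both libraries of a pool, log10 read numbers had a Pearson correlation of 0.773 over 112 miRNAs in pool A, 0.793 over 112 in pool B and 0.768 over 98 in pool C. Between replicates the correlation was 0.891 to 0.910 over 78 to 82 miRNAs for RNase H and 0.978 to 0.983 over 555 to 562 for beads. As these sets of miRNAs differ, the correlations are not directly comparable. These correlations are across miRNAs, which are not independent replicates, and libraries of few reads enter them with more counting noise.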

How the data were processed

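Small RNA was sequenced from serum, and the authors trimmed adapters with cutadapt (1.8.1) and mapped reads to the mouse genome (GRCm38) with Bowtie (1.1.2). The deposited values are raw counts, not normalized, per mature miRNA (miRBase identifier) and per distinct sequence of the tRNA, piRNA, rRNA, snRNA and snoRNA classes; 12 of 18 files were used. Members and lists were chosen with earlier results of these data known. Groups and pools came from the labels. The libraries held from 47252 to 3538246 annotated counts. Counts and shares were compared by exact permutation tests (SciPy 1.17.1), two-sided; the smallest p is 0.1, or 0.25 when paired within pools. miRNA counts were tested with edgeR (4.0.16) with the miRNA sum as library size, filterByExpr, the pool as a block and Benjamini-Hochberg adjustment at 0.05. The test was run on counts simulated from the mean beads profile, with the same spread for every miRNA and no difference between pools. That check does not cover miRNAs whose spread between pools is wider.

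The block rests on the pools named in the labels. The deviations of same-pool libraries from their group means had correlations of -0.21, -0.25 and -0.03 over 46 miRNAs (pools A, B, C). Named were to be the 10 most abundant miRNAs, those called with the smallest p, those only in RNase H libraries and members of fixed miRNA lists. As the files pair no identifier with a name, at most 2 identifiers per direction are printed, and the lists, cell markers, GC content and matches to tRNA-half fragments or probes are not analysed here. Expected unique miRNAs under thinning are hypergeometric. DESeq2 (1.42.0) and limma (3.58.1) were alternatives. edgeR with robust fitting and limma-voom were chosen after seeing the data.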

Additional observations from a re-analysis of the deposited data

How the results depend on the processing

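The number of miRNAs that passed was 4; it was 5 without the replicate block, 6 with TMM, 5 without a filter, 3 with the filter on the mean share and 4 without the leading RNase H miRNA. Comparing libraries paired within pools turned the direction of no class count or ratio. For shares the mean paired difference equals the difference of the means, so pairing could not turn its sign. Leaving out a pool gave 4 to 7, the 7 without pool B. With all annotated reads as library size 217 passed and with DESeq2 137. With limma-voom 169 passed (163 higher, 6 lower), of which 6 were among the 46 abundant miRNAs. Some of the 163 had no read in any RNase H library. The cause of these differences was not tested. Of the miRNAs that passed, the most abundant had a log2 fold change of -3.31 with all annotated reads and -1.75 with DESeq2, and MIMAT0014944 -1.52 and -0.0273. miR-16-5p ranged from -0.39 to 0.0207 and MIMAT0000531 from -0.21 to 0.0729 when a pool was left out. With DESeq2 they were at -3.57 and -3.40, and with all annotated reads as library size at -5.13 and -4.97. Both passed as lower in each of these settings, so that they did not pass holds only for shares of miRNA reads. Whether these shares were equal was not tested. The tRNA share difference turned to 45.5 points without piRNA and 52.6 of tRNA and miRNA reads, that of unique miRNAs to 2.38 at an equal miRNA sum, and that of snRNA ranged from -0.0032 to 0.018 points when a pool was left out. The mean correlation within pools, 0.778, was 0.825 by Spearman's rho, 0.698 at 4 reads or more in both libraries and 0.851 between group means. Leaving out a pool moved the tRNA share difference to between -17.1 and -6.79 points. The low number of miRNA reads, 1199 to 2040, limits every value of a single miRNA with RNase H.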

Other observations

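miRNAs with a miRBase identifier number of 10000 or more held 11.6%, 6.32% and 6.59% of miRNA reads in the RNase H libraries of pools A, B and C and 1.11%, 1.16% and 1.14% in the beads libraries. The 3 of them that passed the test accounted for 218 of 237, 99 of 125 and 66 of 79 of these reads with RNase H. Without them the shares were 0.931%, 1.32% and 1.08% with RNase H and 0.852%, 0.866% and 0.854% with beads.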
